A study of Mus musculus with 6 samples.

Results

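NAD is the coenzyme that sirtuins, including SIRT6, and poly-ADP-ribose polymerases break down when they act, so its supply rests on continuous synthesis. This section describes the mRNA of 10 genes of NAD synthesis and consumption in freshly sorted MuSCs, the muscle stem cells from which injured fibres are rebuilt. The genes were taken by symbol from a table of 22706 genes, and all 10 were found, with 1 row each. They are Nampt and Nmrk1 (salvage of nicotinamide and of nicotinamide riboside), Nmnat1, Nmnat2, Nmnat3 and Nadsyn1 (the last steps to NAD), Nadk (NADP synthesis), Cd38 and Bst1 (NAD breakdown) and Nnmt (removal of nicotinamide). In most tissues, nicotinamide released by NAD-consuming enzymes is recycled by NAMPT to nicotinamide mononucleotide, which the 3 NMNAT enzymes turn into NAD in the nucleus (NMNAT1), at the Golgi and in axons (NMNAT2) and in mitochondria (NMNAT3).

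The 6 libraries fell into 3 groups of 2. Control MuSCs came from wild-type mice, mdx MuSCs from mice with a mutation of the dystrophin gene, a model of Duchenne muscular dystrophy, and Sirt6mKO/mdx MuSCs from mdx mice that also carried loxP-flanked Sirt6 alleles and Cre recombinase expressed from the Pax7 promoter. This Cre is constitutively active, so Sirt6 was inactivated in the skeletal muscle lineage and not only in adult stem cells. According to the methods, the Sirt6mKO line also carried a ROSA26-YFP reporter, the mdx allele came from C57BL/10ScSn mice and all mice were kept on a C57BL/6 background, which is also the strain of all 3 groups in the labels. Whether control and mdx mice carried Cre or floxed alleles was not given in the labels. The methods state that male mice were used for in vivo experiments on these genotypes. The number of mice per library was not given in the sources used here, and the methods call the libraries of a group biological replicates. To keep other cells out, the sort removed cells with Sca1, CD45 or CD31 and kept cells with integrin alpha 7 and CD34 or with a fluorescent Pax7 reporter. According to the authors, sorted cells that were analysed again were mostly but not fully pure, so other cells can contribute to the values.

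The approximate depth was between 4397466 and 9744261 reads per library, and the 10 most abundant genes took 21.7% and 11.8% (control), 22.7% and 22.9% (mdx) and 32.6% and 30.0% (Sirt6mKO/mdx) of the summed values. All 10 MuSC markers were present, Pax7 at 2167 to 3236 normalized reads, and their summed level was between 19122 and 25411 in the 6 libraries. Single markers moved within that sum. Sdc4 was called in all 3 comparisons (-2.69, 1.37 and -1.31) and Chrdl2 was called lower than control in mdx (-2.36) and in Sirt6mKO/mdx (-1.56). Leukocyte markers were low. Ptprc (CD45) was at 0 to 5 normalized reads in 5 libraries and at 19 in Sirt6mKO/mdx replicate 2, and the summed level of the 11 markers found was 118 to 155 in control and mdx and 257 and 213 in Sirt6mKO/mdx. Of these sums Cd68 made up 86 and 88 in control but 30 and 26 in mdx, so they do not show the direction of the other markers. Summed endothelial markers (8 genes) were at 950 and 800 (control), 449 and 445 (mdx) and 662 and 668 (Sirt6mKO/mdx). Most of this was Tek, at 669 and 631, 379 and 348, and 503 and 469 in the same order. Summed fibro-adipogenic markers (9 genes) were at 21083 and 28002, 43762 and 38246, and 23208 and 32357 in the same order, most of it Col3a1. Sirt6 itself was at 41 and 32 normalized reads (control), 33 and 40 (mdx) and 37 and 30 (Sirt6mKO/mdx). These are values of the whole gene, of which only some exons were flanked by loxP, so they do not check the deletion, and each direction given for this group rests on its label. Xist, the RNA of the inactive X chromosome of female cells, was at 16772 and 12950 in control but at 7 to 34 in the other 4 libraries, while the Y-linked Ddx3y was at 3 and 8 in control and at 1024 to 1767 elsewhere. The control libraries thus had the pattern of female cells and the other 4 that of male cells, and in comparisons with control the genotype and the sex cannot be told apart. The comparison of Sirt6mKO/mdx with mdx uses no control library for its group means.

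To place the 10 genes relative to each other, their level was divided by the length of their exons (normalized reads per kb). Nadk, whose product phosphorylates NAD to NADP, had the highest mean level over the 6 libraries at 98.7 per kb, with a range of 68.1 to 144 that did not overlap that of any other gene except Nnmt. Nampt followed with 43.8 per kb (34.2 to 53.6). Nnmt had a mean of 34.3 per kb but ranged from 3.17 to 93.3, so its place in the order depended on the library. Nadsyn1 (14.6), Nmnat3 (12.9), Nmnat1 (10.6), Nmnat2 (7.32) and Nmrk1 (7.27 per kb) formed a low group in which each range overlapped the next. Cd38 (0.643) and Bst1 (0.101 per kb) were lowest, and the ranges of these 2 overlapped. The plot of normalized read counts by library shows the same values without the division by length.

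**Figure D1:**
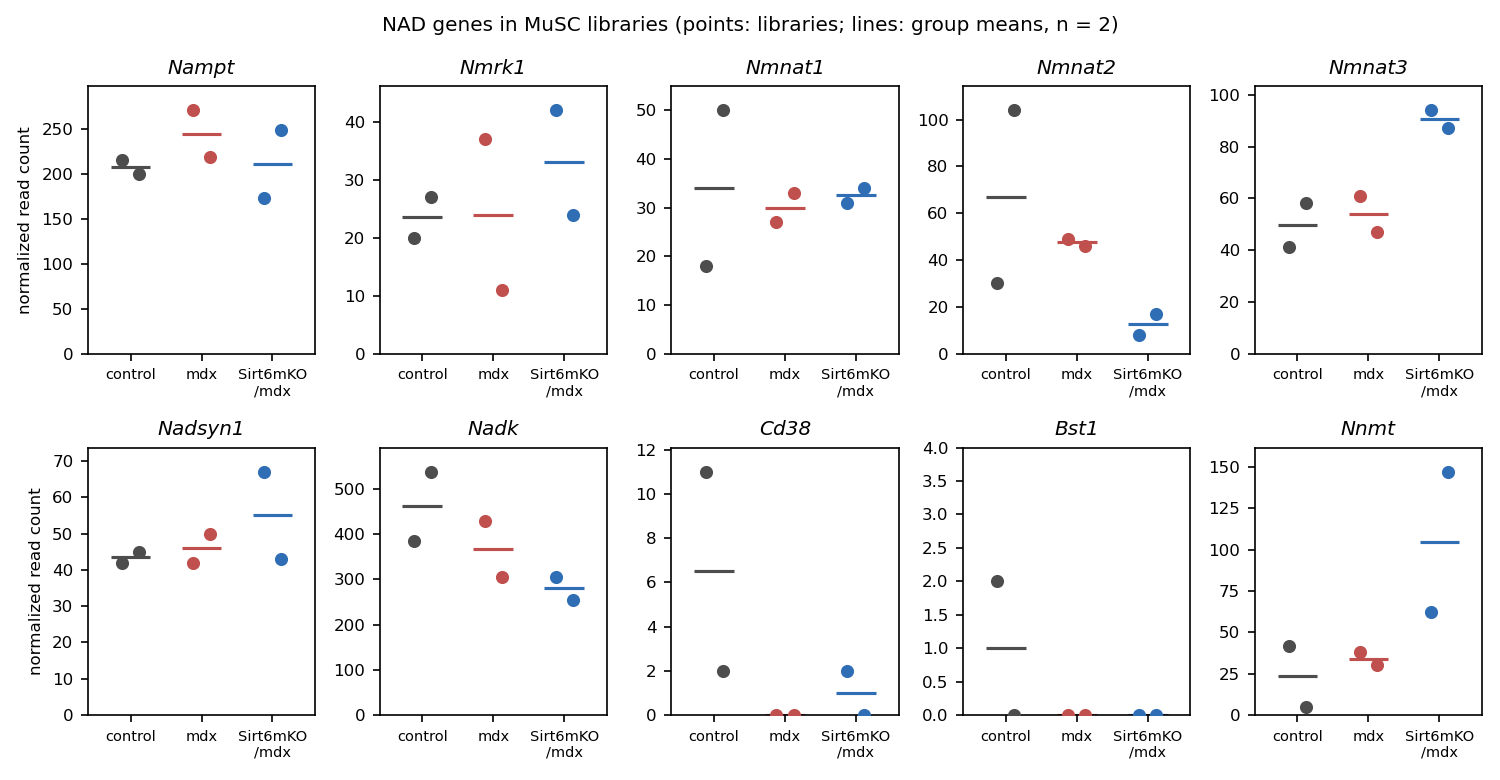
Normalized read count (y axis, linear, own scale for each gene) of the 10 genes in the 6 libraries, by group (x axis). Points are libraries and lines are means of 2 libraries. Nmnat2 was lowest and Nmnat3 and Nnmt were highest in both Sirt6mKO/mdx libraries, and Cd38 and Bst1 did not exceed 11 in any library.

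Differences between groups were tested with limma on log2(value + 1) over all 15915 genes with a mean of at least 5, which 8 of the 10 genes passed. Cd38 and Bst1 did not. Calls required an adjusted p of at most 0.05 (Benjamini-Hochberg over all genes tested) and a log2 fold change of at least 1 in either direction. In mdx against control, 0 of the 8 genes were called and 0 had an unadjusted p under 0.05 (limma), where 14.2% of all genes were called and 31% had such a p. In Sirt6mKO/mdx against mdx, 0 were called and 1 gene, Nmnat2, had an unadjusted p under 0.05, where 8.17% of all genes were called and 25.2% had such a p. In Sirt6mKO/mdx against control, 2 were called, Nnmt higher and Nmnat2 lower, where 7.87% of all genes were called, 5.19% higher and 2.68% lower, and 4 of the 8 had an unadjusted p under 0.05, as had 24.1% of all genes. The 4 were Nmnat2, Nmnat3, Nadk and Nnmt. The median log2 fold changes of the 8 genes were 0.03, 0.17 and 0.20 in these comparisons, against 0.00, 0.02 and 0.01 over all genes. The groups were without overlap for 1, 3 and 4 of the 8 genes, against 57%, 56% and 51.6% of all genes. Both comparisons of Sirt6mKO/mdx use its libraries, both comparisons with control use the control libraries and both with mdx the mdx libraries, so the 3 sets of values are not independent. Neither call against control held with a pseudocount of 0.1, with no minimum mean, with 1 prior variance for all genes or with only the 2 groups compared in the fit, and that of Nnmt was also lost with a robust prior variance. As bulk values, they cannot tell fewer cells with a transcript from less of it per cell.

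**Figure D2:**
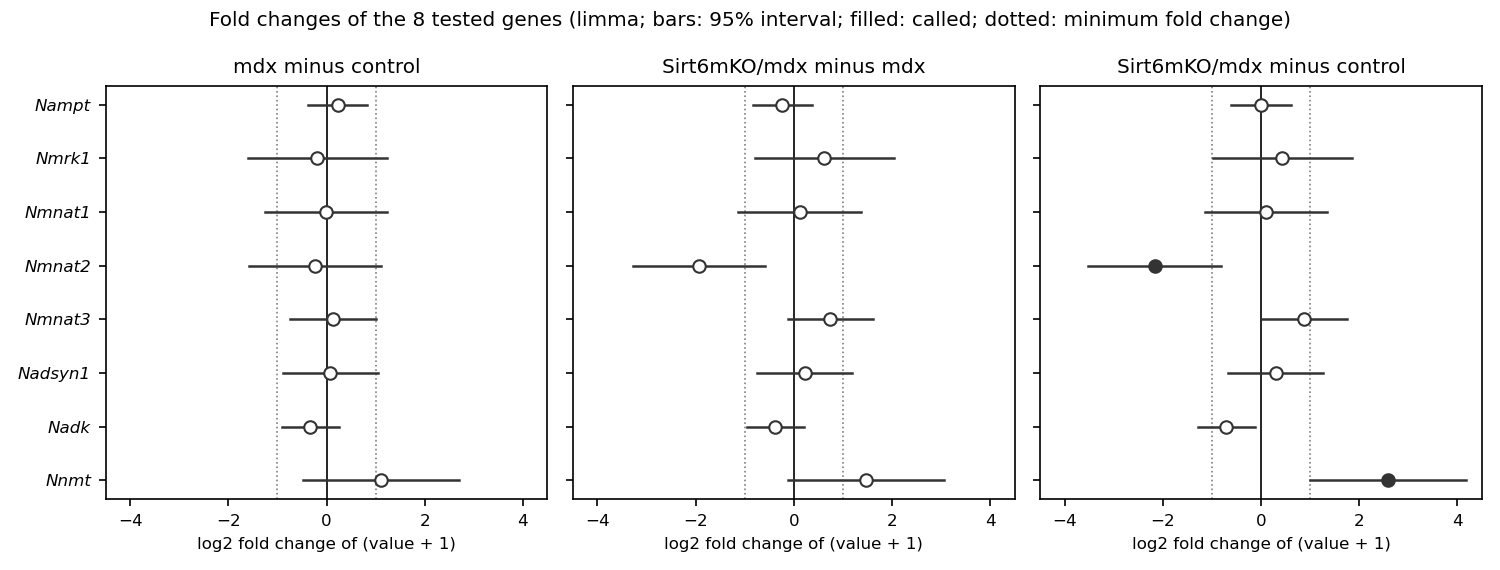
Log2 fold change of value + 1 (x axis) of the 8 tested genes (y axis) in the 3 comparisons. Bars are 95% intervals of limma, dotted lines mark the minimum fold change of a call and filled points are called genes. All intervals of mdx against control crossed 0, and the called genes were Nmnat2 (-2.16) and Nnmt (2.59) in Sirt6mKO/mdx against control.

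The 3 NMNAT genes, whose products carry out the same reaction in different compartments, did not follow each other in the Sirt6mKO/mdx libraries, where Nmnat2 was lowest and Nmnat3 highest. Nmnat2 (ENSMUSG00000042751; GRCm38 chromosome 1, 152955101 to 153119260) was at 30 and 104 normalized reads (control), 49 and 46 (mdx) and 8 and 17 (Sirt6mKO/mdx). Both Sirt6mKO/mdx libraries thus lay below the other 4, and the control libraries lay furthest apart. The low values rest on 5 and 9 approximate reads, which by counting error alone (95% exact Poisson interval) allow 2.51 to 18.1 and 7.66 to 31.8 normalized reads. The group means were 67.0 ± 52.3, 47.5 ± 2.12 and 12.5 ± 6.36 (SD, n = 2). Against control its log2 fold change was -2.16 (SE 0.63, limma adjusted p 0.0455), and it was called. Leaving out control replicate 2 moved this to -1.28 and leaving out either Sirt6mKO/mdx library to -1.66 or -2.66, each without a call. Without control replicate 1 the log2 fold change was -3.04. Against mdx it was -1.93 (SE 0.63, limma adjusted p 0.0705, 95% interval -3.28 to -0.58), which missed a call. It was called with libraries scaled to total counts (-2.51), a scaling that moved the median of all genes to -0.58. In mdx against control it was -0.23 (SE 0.63, adjusted p 0.838).

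Nmnat3 (ENSMUSG00000032456; chromosome 9, 98287435 to 98420527), which encodes the mitochondrial enzyme, was at 41 and 58 normalized reads (control), 61 and 47 (mdx) and 94 and 87 (Sirt6mKO/mdx), so that again the Sirt6mKO/mdx libraries did not overlap the others. Its log2 fold change was 0.75 against mdx (SE 0.41, adjusted p 0.274) and 0.88 against control (SE 0.41, adjusted p 0.205), and it was called in neither. With total counts these values were 0.13 and 0.28. Nmnat1 (chromosome 4, 149467572 to 149485202), which encodes the nuclear enzyme, was at 18 and 50, 27 and 33, and 31 and 34, and its log2 fold changes lay between -0.01 and 0.12 with an SE of 0.58. The control libraries of Nmnat1 spanned all the others.

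A ratio within a library does not depend on how the libraries were scaled, and such a ratio of Nmnat3 to Nmnat2 was computed after their values had been seen. Nmnat3 had 1.37 and 0.558 times the normalized reads of Nmnat2 in control and 1.24 and 1.02 times in mdx, but 11.8 and 5.12 times in Sirt6mKO/mdx. Of the approximate reads on these 2 genes, Nmnat2 held 42.6% and 64.3% (control), 44.6% and 49.6% (mdx) and 7.58% and 16.1% (Sirt6mKO/mdx). The 95% exact (Clopper-Pearson) intervals of the latter were 2.51% to 16.8% and 7.62% to 28.33%. The lowest bound among the other 4 libraries was 28.26%, in control replicate 1, so the intervals of Sirt6mKO/mdx replicate 2 and control replicate 1 overlapped slightly. Since the ratio was chosen with the values in view, it is given as a description, with no test. Of the summed level per kb of the 3 genes, Nmnat1 held 30.1% to 38.5% in all 6 libraries.

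**Figure D3:**
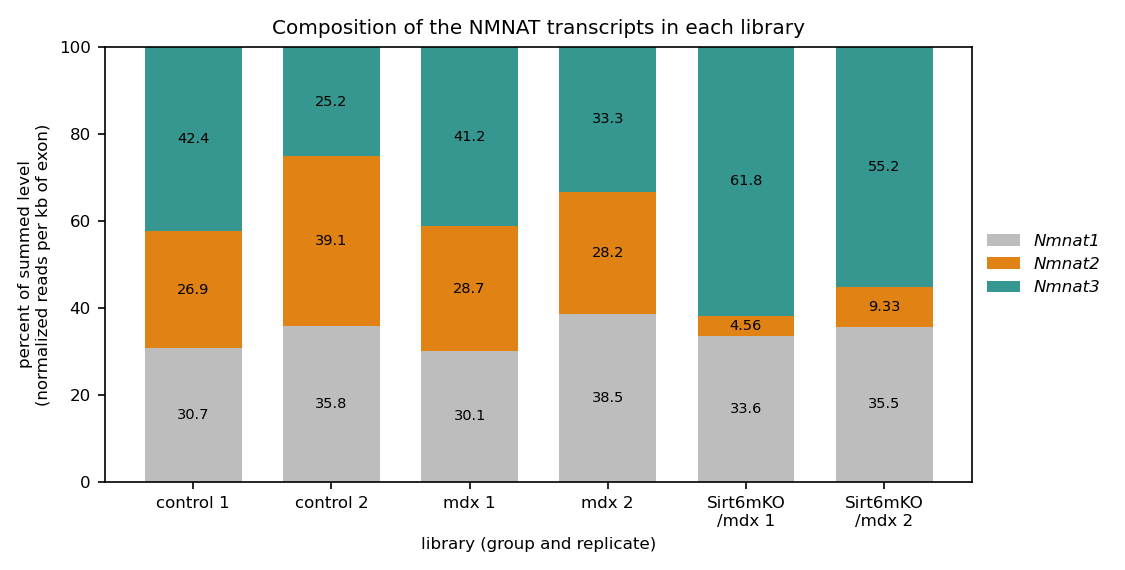
Share of Nmnat1, Nmnat2 and Nmnat3 (y axis, percent of their summed normalized reads per kb of exon, linear from 0) in each of the 6 libraries (x axis). In Sirt6mKO/mdx, Nmnat2 held 4.56% and 9.33% and Nmnat3 61.8% and 55.2% of the sum, where the other 4 libraries had 26.9% to 39.1% of Nmnat2 and 25.2% to 42.4% of Nmnat3.

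Because the Sirt6mKO/mdx libraries were the lowest for Nmnat2 and the highest for Nmnat3, which was not called, the 250 bases before their RefSeq start sites (GRCm38.p6) are shown, 5′ to 3′ on the strand of the gene, which is the plus strand for both. Capitals mark the GC box GGGCGG or its reverse complement, and the stretches are chr1:152954851-152955100 for Nmnat2 and chr9:98296320-98296569 for Nmnat3.
Nmnat2: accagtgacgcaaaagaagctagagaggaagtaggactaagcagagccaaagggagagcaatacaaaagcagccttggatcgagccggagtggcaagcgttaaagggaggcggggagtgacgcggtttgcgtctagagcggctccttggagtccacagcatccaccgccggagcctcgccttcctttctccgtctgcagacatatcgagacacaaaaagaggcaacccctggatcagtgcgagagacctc
Nmnat3: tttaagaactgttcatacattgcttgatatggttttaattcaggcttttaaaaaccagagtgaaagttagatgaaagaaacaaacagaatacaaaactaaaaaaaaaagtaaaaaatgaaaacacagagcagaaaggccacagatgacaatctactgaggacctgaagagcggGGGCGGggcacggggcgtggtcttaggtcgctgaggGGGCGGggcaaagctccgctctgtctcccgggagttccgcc
The Nmnat3 stretch held 2 GC boxes, 77 and 41 bases before the start, and the Nmnat2 stretch held 0, where 32.7% of 32851 RefSeq promoters of this length held at least 1. None of the other motifs searched on both strands was in either stretch. These were the E-box CACGTG (6.02% of all promoters), the AP-1 motif TGANTCA (6.75%), the CRE TGACGTCA (1.55%) and a consensus NF-kB motif (0.14%), and no match overlapped another. The G and C content was 56.4% for Nmnat2 and 45.6% for Nmnat3, against a median of 52.4%. The RefSeq start of Nmnat3 lies inside the span of the gene given above, downstream of its first base. RefSeq promoters were found for 8 of the 10 genes, all but Bst1 and Nnmt.

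By the rule for likeness, the genes closest to Nmnat2 over the 6 libraries were Dctd, Dbt and Thoc5, among genes with a mean of at least 50. The root mean square difference of their centred log2(value + 1) profiles from that of Nmnat2 was 0.35, 0.39 and 0.40. Dctd, which encodes deoxycytidylate deaminase, was at 91 and 221 (control), 92 and 138 (mdx) and 34 and 43 (Sirt6mKO/mdx). This is a description over 6 libraries that share their depth and scaling, and it was not tested.

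Nnmt (ENSMUSG00000032271; chromosome 9, 48591877 to 48605153) encodes the enzyme that methylates nicotinamide and so takes it out of the salvage route. It was at 42 and 5 normalized reads (control), 38 and 30 (mdx) and 62 and 147 (Sirt6mKO/mdx). Both Sirt6mKO/mdx libraries were above the other 4, but the libraries within control and within Sirt6mKO/mdx were far apart. The means were 23.5 ± 26.2, 34.0 ± 5.66 and 104.5 ± 60.1 (SD, n = 2). Against control the log2 fold change was 2.59 (SE 0.75, limma adjusted p 0.0424), which was called. It was 1.17 without control replicate 2, which holds 6 approximate reads of Nnmt (95% exact Poisson interval 1.70 to 10.1 normalized reads), and 4.01 without control replicate 1. The call was lost without control replicate 2, Sirt6mKO/mdx replicate 1 (3.20) or Sirt6mKO/mdx replicate 2 (1.97). Against mdx it was 1.47 (SE 0.75, adjusted p 0.235) and in mdx against control 1.11 (SE 0.75, adjusted p 0.335), which turned to -0.31 without control replicate 2 and became a call (2.53) without control replicate 1.

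By the same rule, the 3 genes whose profile was closest to Nnmt were the misc_RNA gene Gm25687, the replication histone gene Hist1h3f and the 5.8S ribosomal RNA gene n-R5-8s1, with root mean square differences of 0.25, 0.44 and 0.46. The last was at 8778 and 2192 normalized reads (control), 13540 and 6810 (mdx) and 25689 and 26694 (Sirt6mKO/mdx). The share of the 10 most abundant genes, given above, was also lowest in control replicate 2 and highest in the Sirt6mKO/mdx libraries. Within Sirt6mKO/mdx this share was higher in replicate 1 and Nnmt higher in replicate 2. Control replicate 1 had more Nnmt than both mdx libraries and a lower share. With total counts, the log2 fold change of Nnmt was 2.02 against control (adjusted p 0.0433) and 0.86 against mdx. Nnmt is also known from fibroblasts and fat cells. The summed fibro-adipogenic markers were higher in both mdx libraries than in Sirt6mKO/mdx, but the sum is mostly collagen, and 6 of the 9 markers were lower and 3 higher in Sirt6mKO/mdx than in mdx, with 1 call (Col1a1, lower). The 3 with higher means were Dcn (1472.5 in mdx and 1682.5 in Sirt6mKO/mdx), Lum (189.5 and 209.0) and Pi16 (18.0 and 33.5). Against control, where Nnmt was called, 7 of the 9 markers were higher in Sirt6mKO/mdx (median log2 fold change 0.57) and 1 was called, Col1a2 (3.17), while Ly6a was at 2.36 and Lum at 1.12 without a call. The part of these cells, of ribosomal RNA or of the most abundant genes in the values of Nnmt was not tested.

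Nampt (ENSMUSG00000020572; chromosome 12, 32820335 to 32853369), the rate-limiting enzyme of the salvage route, was at 216 and 200 normalized reads (control), 271 and 219 (mdx) and 173 and 249 (Sirt6mKO/mdx). The mdx libraries were both above control, 219 against 216 at the nearest, and the Sirt6mKO/mdx libraries spanned both control values. The log2 fold changes were 0.23 in mdx against control, -0.23 in Sirt6mKO/mdx against mdx and -0.00 against control (SE 0.28, limma adjusted p 0.626, 0.661 and 1). The 95% intervals, from -0.83 to 0.37 for Sirt6mKO/mdx against mdx, -0.38 to 0.83 for mdx against control and -0.61 to 0.60 for Sirt6mKO/mdx against control, stayed within a change of 2-fold in either direction under the deposited scaling. With total counts the log2 fold change was -0.85 against mdx (SE 0.33, adjusted p 0.0641) and -0.60 against control (SE 0.33, adjusted p 0.191), of which the former lay within 1 SE of a 2-fold change.

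Nadk (ENSMUSG00000029063; chromosome 4, 155562378 to 155591001) was at 385 and 538 normalized reads (control), 430 and 305 (mdx) and 305 and 255 (Sirt6mKO/mdx). The Sirt6mKO/mdx libraries were below both control libraries and reached the lower mdx library. Its log2 fold change against control was -0.70 (SE 0.27, limma adjusted p 0.130), against mdx -0.38 (adjusted p 0.428) and in mdx against control -0.33 (adjusted p 0.451). Leaving out 1 library moved these to between -0.95 and -0.46, -0.62 and -0.13, and -0.58 and -0.08, none of them a call. Of all alternatives, Nadk was called only with total counts, at -1.31 against control (adjusted p 0.00813) and at -1.001 against mdx (adjusted p 0.0289), the latter at the edge of the minimum fold change, a scaling that moved the median of all genes to -0.58 in both comparisons.

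Nadsyn1, which encodes the amidase of the last step from nicotinic acid, was at 42 and 45 (control), 42 and 50 (mdx) and 67 and 43 (Sirt6mKO/mdx), with log2 fold changes between 0.07 and 0.30 (SE 0.45). Nmrk1, a nicotinamide riboside kinase, was at 20 and 27, 37 and 11, and 42 and 24 normalized reads, with log2 fold changes between -0.18 and 0.62 (SE 0.66). For both genes the groups overlapped in all 3 comparisons. Their intervals, such as -0.80 to 2.03 for Nmrk1 in Sirt6mKO/mdx against mdx, do not exclude a change of 2-fold.

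The genes of the NAD glycohydrolases CD38 and BST1 (CD157) were at the limit of detection. They are neighbours on chromosome 5, Bst1 from 43818886 to 43843247 and Cd38 from 43868809 to 43912375, with 25.56 kb between them. Cd38 was at 11 and 2 normalized reads (control), 0 and 0 (mdx) and 2 and 0 (Sirt6mKO/mdx), from 7, 3, 0, 0, 1 and 0 approximate reads. The control level of Cd38 was 4.79 times a floor of 3 reads over the mdx group. This ratio rests on 10 reads in all. It leaves out the counting error of the control reads, so it is not a lower bound of the fold. Without control replicate 1, control is itself at 3 reads, the floor, and no fold can be given. Bst1 had 1 approximate read in control replicate 1 and 0 in the other 5 libraries, which, with 3 reads taken as the most that a count of 0 allows, limits the level to 1.96 to 5.59 normalized reads in those libraries. CD38 and BST1 are best known from blood cells. Of 5 tested leukocyte markers, 1 was called lower in mdx than in control, as Cd38 was listed lower there (Cd68, 86 and 88 against 30 and 26), and 1 higher (Lyz2, 0 and 14 against 47 and 26), while Ptprc was at 0 in both control libraries. Of 6 tested endothelial markers, 5 had a lower level in mdx and 2 were called lower. In control replicate 1, where Cd38 was highest, Pecam1 was the highest of the 6 libraries (199) and Vwf the lowest (18). The part of other cells in these values was not tested. Of the exonic bases of Bst1, 2.95% overlap Fbxl5 on the opposite strand, and no other member shares exonic bases with another gene in the annotation used.

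To see the genes around these 10, a list of 46 further NAD genes was examined, of which all were in the table and 39 were tested. In mdx against control 4 were called, 0 higher and 4 lower (background 6.89% higher and 7.34% lower), with a median log2 fold change of -0.07. In Sirt6mKO/mdx against mdx 7 were called, 5 higher and 2 lower (background 5.62% and 2.54%), with a median of -0.10. In Sirt6mKO/mdx against control 1 was called, 0 higher and 1 lower (background 5.19% and 2.68%), with a median of -0.12. The medians over all genes were 0.00, 0.02 and 0.01.

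The route from tryptophan was scarcely detected. Of its genes Tdo2, Ido1, Ido2, Afmid, Kmo, Kynu, Haao, Acmsd and Qprt, only Afmid and Tdo2 passed the minimum mean of 5, at 18.0 and 5.17 normalized reads. Qprt, which makes the nicotinic acid mononucleotide of this route, was at 3 and 1, 7 and 0, and 0 and 4. Naprt, which starts the route from nicotinic acid, was present in every library, at 42 and 42 (control), 30 and 41 (mdx) and 45 and 41 (Sirt6mKO/mdx).

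The purine nucleoside phosphorylase genes Pnp and Pnp2, whose products also split nicotinamide riboside, showed the widest differences of the list. Pnp was at 642 and 334 normalized reads (control), 88 and 69 (mdx) and 379 and 475 (Sirt6mKO/mdx). The mdx libraries lay far below the other 4. Its log2 fold change was -2.56 in mdx against control (SE 0.32, limma adjusted p 7.8e-05) and 2.43 in Sirt6mKO/mdx against mdx (SE 0.32, adjusted p 0.00025), and both calls held without any single library. Pnp2 was at 106 and 40, 8 and 7, and 36 and 41, with log2 fold changes of -2.96 (adjusted p 0.0039) and 2.22 (adjusted p 0.0339), of which the first call was lost without control replicate 1 (-2.27) and the second without any single library (2.12 to 2.31). Pnp and Pnp2 are near-identical copies whose annotated spans on chromosome 14 overlap (50944302 to 50965237 and 50955992 to 50964749). Reads that matched several genes or places were left out by the authors, so both values are uncertain. Nmrk2, the riboside kinase of muscle fibres, was at 85 and 39, 11 and 21, and 26 and 19, and missed a call in mdx against control by its adjusted p, just above 0.05 (log2 fold change -1.85, SE 0.61, limma). It was called with a minimum mean of 10 (adjusted p 0.0461), with total counts (0.0474), with a robust prior variance (0.0421) and without control replicate 2 (-2.40, adjusted p 0.0398). Beside it, the summed myofibre markers (9 genes) were at 7925 and 11356 (control), 5164 and 1888 (mdx) and 11337 and 6105 (Sirt6mKO/mdx), and 5 of 9 were called lower in mdx. The part of fibre RNA in Nmrk2 was not tested.

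Aox1, which encodes aldehyde oxidase and oxidises the methylated nicotinamide that NNMT makes, was at 1424 and 1650 (control), 508 and 724 (mdx) and 1131 and 1437 (Sirt6mKO/mdx). It fell by 1.34 in mdx on the log2 scale (SE 0.26, limma adjusted p 0.0031) and rose by 1.07 in Sirt6mKO/mdx against mdx (SE 0.26, adjusted p 0.0208). The first call was lost without mdx replicate 1 (-1.08), and the second without any library of the pair of groups (0.82 to 1.24) other than mdx replicate 2 (1.33). Aox1 was thus lowest in mdx, whereas Nnmt was highest in Sirt6mKO/mdx.

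Among NAD consumers, ADP-ribosyl transferase genes were called in both directions in Sirt6mKO/mdx against mdx. Tiparp was at 1477 and 1453 (control), 372 and 285 (mdx) and 525 and 961 (Sirt6mKO/mdx), called lower in mdx (-2.17, SE 0.29, limma adjusted p 0.00014), higher in Sirt6mKO/mdx than in mdx (1.12, adjusted p 0.0260) and lower than control there (-1.04, adjusted p 0.0353). Its call in mdx against control held without any single library. Against mdx it was lost without either mdx library or Sirt6mKO/mdx replicate 2 (0.69 to 1.31), and against control without any single library (-1.48 to -0.61). Parp1 and Parp2, which encode the polymerases that respond to DNA breaks, were lower in Sirt6mKO/mdx than in mdx. Parp1 was at 166 and 296, 309 and 378, and 115 and 192, a difference of -1.20 on the log2 scale (SE 0.33, limma adjusted p 0.0368). Parp2 was at 136 and 177, 176 and 168, and 80 and 73, a difference of -1.16 (SE 0.31, limma adjusted p 0.0316). Leaving out any library of these 2 groups lost the calls of Parp1 and Parp2, with values between -1.56 and -0.83 and between -1.22 and -1.09. In this comparison each such fit lost most calls over all genes. Such losses, also those of Pnp2, Aox1, Tiparp and Sirt1, are thus not particular to these genes. Of the sirtuin genes only Sirt1 was called in any comparison (1.23 in Sirt6mKO/mdx against mdx, adjusted p 0.0227, and lost without any single library of the 2 groups). Sirt1 was at 604 and 299 (control), 225 and 201 (mdx) and 458 and 545 (Sirt6mKO/mdx). In mdx against control its log2 fold change of -0.996 (SE 0.31, limma adjusted p 0.0378) missed the minimum of 1 by little, and it was called with the upper quartile (-1.012) and without control replicate 2 (-1.50), but was at -0.49 without control replicate 1.

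**Figure D4:**
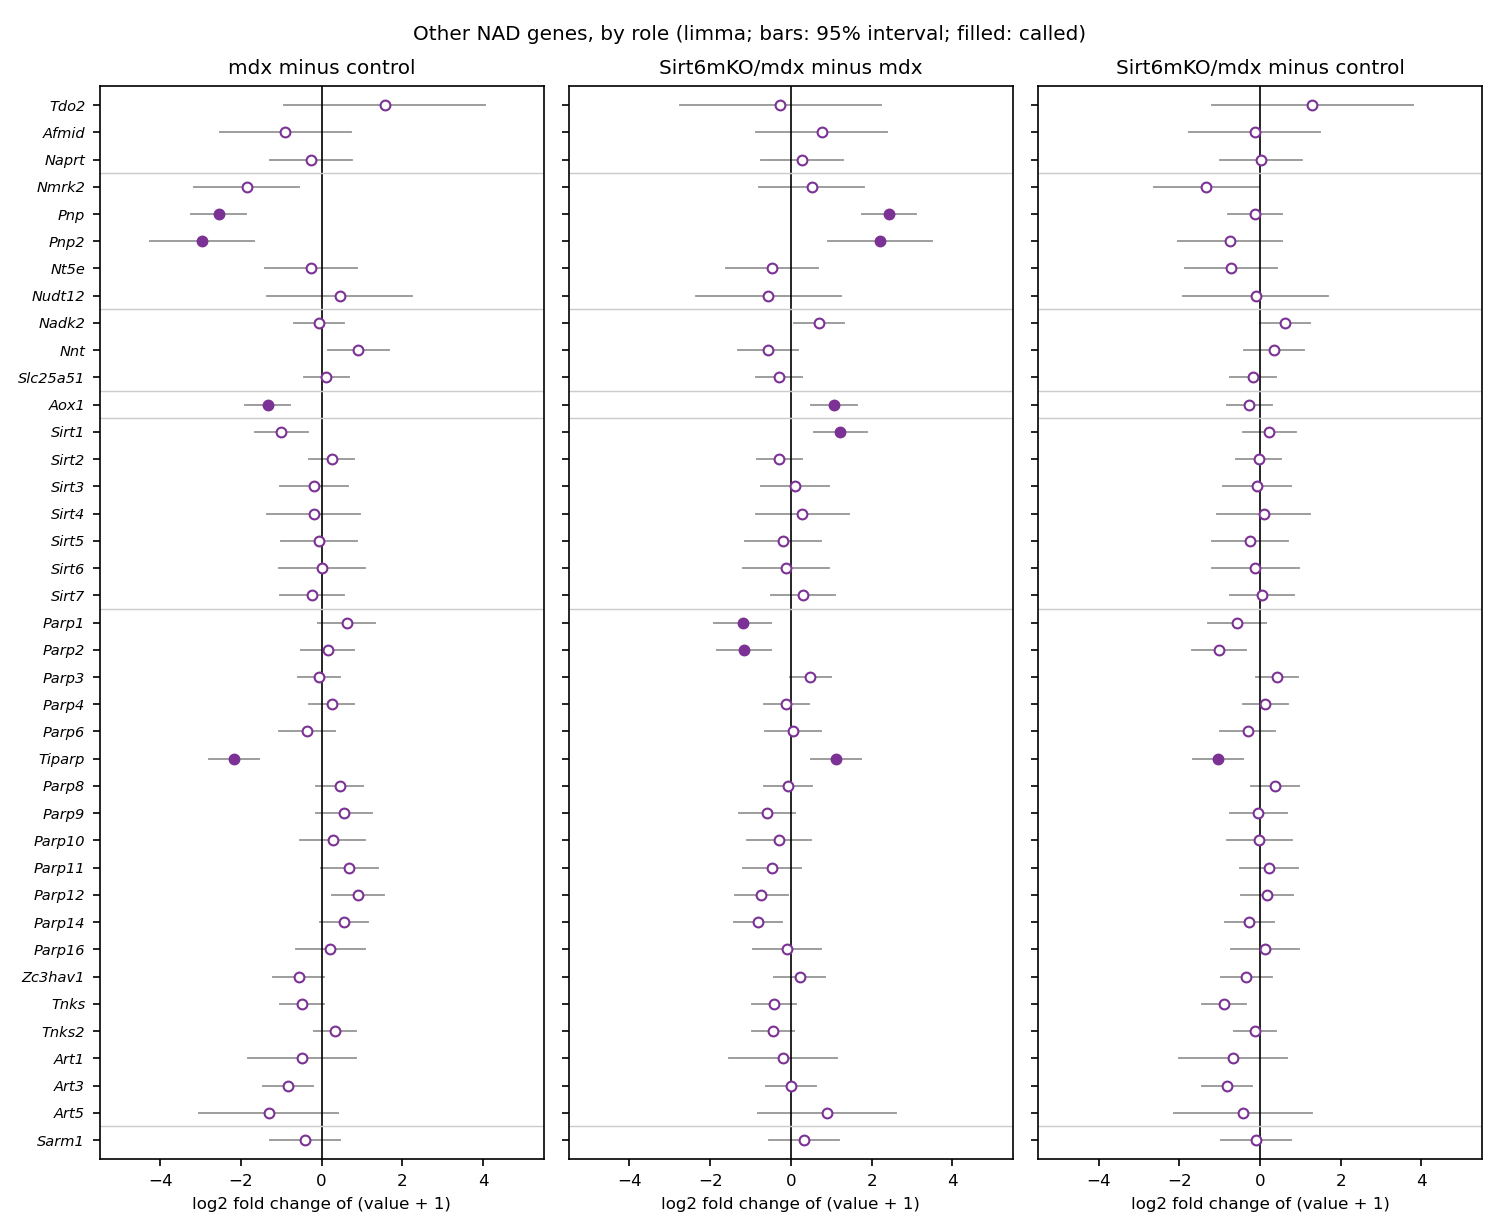
Log2 fold change of value + 1 (x axis) with 95% intervals of limma for the 39 tested genes of the wider NAD list (y axis, horizontal lines separate roles) in the 3 comparisons. Filled points are called genes, which are Pnp, Pnp2, Aox1 and Tiparp in the first, these with Sirt1, Parp1 and Parp2 in the second and Tiparp in the third.

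Both mdx libraries were lowest for Pnp, Pnp2, Aox1, Tiparp and Sirt1, as they were for immediate early and dissociation response genes. The summed level of 28 such genes, with Fos and Egr1 among them, was 194351 and 216606 (control), 26307 and 29738 (mdx) and 150770 and 144855 (Sirt6mKO/mdx). Of these 28 genes 27 were called lower in mdx than in control (median log2 fold change -2.78) and 27 higher in Sirt6mKO/mdx than in mdx (median 2.57). With total counts the log2 fold changes of Aox1, Tiparp and Sirt1 in Sirt6mKO/mdx against mdx were 0.44, 0.50 and 0.60, and none of these was a call. Of the 10 genes described first, 0 of the 8 tested were called in either comparison that involved mdx, where 14.2% and 8.17% of all genes were called. The summed endothelial markers given above and the summed myofibre markers were lowest in both mdx libraries too. In Sirt6mKO/mdx against mdx, 5 of 6 tested endothelial markers had a higher level with 0 calls (3 with an unadjusted p under 0.05, limma), and 9 of 9 myofibre markers had a higher level with 4 calls. The part of this response or of these cells in the values was not tested.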

How the data were processed

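Total RNA of FACS-sorted MuSCs was depleted of ribosomal RNA and sequenced on an Ion Torrent instrument. The submitters' processing notes name FastQC 0.10.1, STAR 2.4.2a, featureCounts 1.4.5-p1 and DESeq2 1.6.0 on GRCm38 (mm10), with another version of STAR and of DESeq2 in the methods, which add that reads on several genes or places were left out. The use of strand was not stated. The authors deposited a score per gene and library, a read count divided by a size factor and rounded, so no count model was run and a change of genes with low values is understated. Size factors were recovered from the skipped and doubled whole numbers (0.537 to 1.53) and gave approximate reads. Intervals from these cover counting error only.

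limma 3.58.1 (R 4.3.3) was fitted to log2(value + 1), with a prior variance following the mean, all 6 libraries, 3 groups and no block. The members, lists, rules and most tests were chosen with earlier results of these data known. All 10 members were named, as were called genes of the wider list with Naprt, Nmrk2, Qprt, Parp1 and Sirt1, and, for called members, the 3 closest genes. Further genes, such as Tdo2, Afmid and Col3a1, lay outside that rule or were picked once values were known. Exon lengths came from GENCODE M21 (98.5% of identifiers matched), promoters from RefSeq, and intervals from scipy 1.17.1. Alternatives were another pseudocount, filter, scaling, prior variance, group subset or block, and leaving out each library.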

Additional observations from a re-analysis of the deposited data

How the results depend on the processing

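Below, values stand in the order mdx against control, Sirt6mKO/mdx against mdx, and Sirt6mKO/mdx against control. With no minimum mean, 406, 19 and 2 of all genes were called, and with 1 prior variance for all genes 541, 0 and 87. Total counts gave 3411 (479 higher, 2932 lower) and 3147 (455 and 2692) in the last 2, where the reported fit had 895 higher and 405 lower, and 826 and 427. Of the 10 genes, total counts gave 2 calls against mdx. Against control, robust prior variance gave 1 call, and 0 remained with a pseudocount of 0.1, no minimum mean, 1 prior variance or only the 2 groups. Of the wider list, no minimum mean gave 0, 0 and 0 calls and 1 prior variance 2, 0 and 0. In the last comparison a pseudocount of 0.1 or only the 2 groups gave 0, total counts 6 and robust prior variance 2. The replicate numbers did not pair the libraries (correlations of deviations -0.13 for control and mdx, 0.01 for mdx and Sirt6mKO/mdx and 0.12 for control and Sirt6mKO/mdx). The replicate block gave 1 call among the 10 genes against mdx (Nmnat2, limma adjusted p 0.0396) and called Nmrk2 in mdx against control (adjusted p 0.0468).

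Signs turned with total counts for Nmnat1 (0.0084, -0.49 and -0.48), for Nadsyn1 (-0.39 and -0.29), Naprt (-0.33 and -0.56) and Nmrk2 (-0.080) where Sirt6mKO/mdx was compared, and against control for Nmrk1 (-0.15) and Sirt1 (-0.37). With the upper quartile, Nampt was at 0.025 against control. The cause was not tested.

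Leaving out 1 library assumes that the lone sample varies like the other groups. It gave 939 to 2356, 203 to 481 and 213 to 1314 calls of all genes, 0 to 1, 0 to 0 and 0 to 2 of the 10 genes, and 3 to 7, 1 to 2 and 0 to 0 of the wider list. Log2 fold changes in mdx against control then ran from -1.01 to 0.65 for Nmrk1, -0.73 to 0.70 for Nmnat1, -1.12 to 0.65 for Nmnat2, -0.11 to 0.38 for Nmnat3, -0.049 to 0.20 for Nadsyn1, -0.31 to 2.53 for Nnmt and -0.041 to 0.34 for Parp2. Against mdx they ran from -0.49 to 0.031 for Nampt, -0.21 to 1.45 for Nmrk1, -0.023 to 0.26 for Nmnat1 and -0.090 to 0.54 for Nadsyn1. In Sirt6mKO/mdx against control they ran from -0.26 to 0.26 for Nampt, -0.61 to 0.82 for Nmnat1, -0.015 to 0.61 for Nadsyn1, -0.60 to 0.34 for Pnp, -0.27 to 0.74 for Sirt1 and -0.034 to 0.10 for Naprt. Depth limits Cd38 and Bst1 (at most 7 and 1 approximate reads in a library), Nmnat2 in Sirt6mKO/mdx (5 and 9) and Nnmt in control replicate 2 (6).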
